A study of Mus musculus with 10 samples.

Results

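The aryl hydrocarbon receptor gene Ahr and 5 of its classic target genes, Cyp1a1, Cyp1b1, Ahrr, Tiparp and Nqo1, were followed through 10 RNA-seq libraries of mouse mammary epithelial cells. These are 6 of 16290 genes in the deposited table, and they were chosen by the low Cyp1a1 values of the groups labelled with an arginine methyltransferase. All 6 were among the 15694 genes that passed the filter on low values (10 or more in 2 or more libraries). Groups labelled with a methyltransferase are called transgenic below, which does not mean that NIC carries no transgene. Since the contrast of each transgenic group with NIC chose the set, values in that contrast are given as a description, with no test of the members. Differences between the transgenic groups were not themselves used for the choice and were tested, although they rest on the same libraries. For Cyp1a1 they hold the low values that led to the choice of the set, so its tests are not independent of that choice.

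The libraries came from FVB mice of 4 genotypes. There were 3 libraries for NIC-Prmt1, 3 for NIC-Carm1, 2 for NIC-Prmt6 and 2 for NIC alone, which is the n of every mean below. The labels do not spell out NIC, which all 4 groups share, and give no age, promoter, transgene design or number of animals per library, so p-values measure only the spread between these samples. Per the labels' protocols, glands number 3 and 4 were digested with enzymes, cells were enriched by short spins, and poly-A RNA was sequenced. The study compared gene expression with and without an overexpressed protein arginine methyltransferase (PRMT): PRMT1, CARM1 or PRMT6, enzymes that methylate arginines of histones and other proteins.

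AHR is a transcription factor of the bHLH-PAS family that waits in the cytoplasm bound to HSP90 and p23. Planar aromatic ligands such as dioxin, and some tryptophan products, send it to the nucleus, where it pairs with ARNT on DNA elements that hold the core GCGTG. In mammary tissue it is known for inducing the cytochrome P450 enzymes CYP1A1 and CYP1B1, which oxidise polycyclic hydrocarbons and estrogens. AHRR and TIPARP are induced by the receptor and act back on it as repressors.

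The libraries held between 21589274 and 30260921 reads recovered from the deposited values. Counting noise thus matters only for genes with few reads, among the members Ahrr and, in some groups, Cyp1a1. All 10 luminal epithelium markers (among them Epcam, Krt8 and Krt18) had reads in every library. Markers of other cells were present too: fibroblast genes summed to between 2896 and 11611 CPM (read counts scaled to a common library depth) and endothelial genes to between 1135 and 3354 CPM. Of the targeted genes, Prmt6 was higher in NIC-Prmt6 than in NIC (log2 difference 1.09 ± 0.20, adjusted p = 0.00321), Carm1 was higher than in NIC in all 3 transgenic groups (0.46 to 0.60), and Prmt1 was not shown to differ between NIC-Prmt1 and NIC (0.05 ± 0.12, adjusted p = 0.784). Each group name here stands for its label. Within NIC-Carm1, replicates 2 and 3 hardly differed, and the same held for both NIC-Prmt6 libraries (a chi-square of their reads over its degrees of freedom of 2.69 and 2.44, against 28.0 to 105 in the other pairs within a group). Their differences still exceeded counting error, and each entered the fit as its own sample. The labels do not say whether such a pair came from separate animals, and it may be the same material measured again. In that case its SD and the main p-values would understate the spread between animals. Each call of a member between transgenic groups is therefore read with and without the near-identical libraries averaged to 1 library. Adjusted p-values are from limma with Benjamini-Hochberg adjustment over all genes tested, with a threshold of 0.05, and log2 differences are on the log2(value + 1) scale, given ± their standard error.

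The sequence just upstream of the target genes is shown because AHR and ARNT bind a short core, GCGTG, which reads CACGC on the opposite strand. Windows of 250 bases before the RefSeq transcript start (GRCm38.p6) were found for 5 of the 6 members. Capitals mark each match of the core on either strand.
Cyp1a1 (chr9:57697363-57697612, plus strand): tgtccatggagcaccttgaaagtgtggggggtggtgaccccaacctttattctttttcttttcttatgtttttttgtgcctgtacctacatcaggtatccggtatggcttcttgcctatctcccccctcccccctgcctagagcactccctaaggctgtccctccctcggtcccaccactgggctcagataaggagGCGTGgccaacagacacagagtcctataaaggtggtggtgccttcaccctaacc
Cyp1b1 (chr17:79715062-79715311, minus strand): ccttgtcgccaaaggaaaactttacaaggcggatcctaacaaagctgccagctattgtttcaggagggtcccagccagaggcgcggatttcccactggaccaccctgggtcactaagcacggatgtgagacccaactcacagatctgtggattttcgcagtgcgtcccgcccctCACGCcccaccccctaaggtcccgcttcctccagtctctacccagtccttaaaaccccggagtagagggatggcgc
Ahrr (chr13:74292332-74292581, minus strand): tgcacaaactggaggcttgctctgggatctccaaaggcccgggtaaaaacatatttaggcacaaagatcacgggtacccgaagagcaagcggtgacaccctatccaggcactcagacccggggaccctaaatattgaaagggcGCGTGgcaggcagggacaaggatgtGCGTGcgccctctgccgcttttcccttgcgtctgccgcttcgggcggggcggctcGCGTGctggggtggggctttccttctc
Tiparp (chr3:65528197-65528446, plus strand): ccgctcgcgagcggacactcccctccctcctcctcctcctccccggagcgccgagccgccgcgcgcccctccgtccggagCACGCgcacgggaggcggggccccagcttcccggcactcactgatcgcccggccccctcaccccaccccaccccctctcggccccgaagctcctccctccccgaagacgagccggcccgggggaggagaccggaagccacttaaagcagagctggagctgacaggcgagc
Cyp1a1, Cyp1b1 and Tiparp each held 1 match, which began 54, 76 and 170 bases before the start. Ahrr held 3, at 107, 82 and 27 bases, and the one nearest the start was also a match to the longer form TNGCGTG, which contains the core. The Nqo1 window held no match. Of 32851 such windows in the table, 28.2% held at least 1 core, 2.77% held at least 3, and 4.10% held TNGCGTG. A match describes letters only, and the windows do not reach the distal elements of these genes.

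Cyp1a1 (chromosome 9, 57687928 to 57703824, plus strand, GRCm38, GENCODE M21, protein coding) encodes the P450 enzyme most often used as a readout of AHR activity. Its normalised read count was 838 and 616 in the NIC libraries and 302 and 267 in NIC-Prmt6. It was 82.7, 26.9 and 22.7 in NIC-Prmt1 replicates 1 to 3 and 32.7, 10.7 and 20.4 in NIC-Carm1 replicates 1 to 3. Each NIC library was thus above each NIC-Prmt6 library, and each NIC-Prmt6 library was above every NIC-Prmt1 and NIC-Carm1 library, while the last 2 groups overlapped. NIC had a mean of 727 ± 157 (SD, n = 2) and NIC-Prmt6 of 285 ± 25.3 (SD, n = 2). NIC-Prmt1 had a mean of 44.1 ± 33.5 (SD, n = 3) and NIC-Carm1 of 21.2 ± 11.01 (SD, n = 3). The NIC mean was 2.56 times that of NIC-Prmt6, 16.5 times that of NIC-Prmt1 and 34.2 times that of NIC-Carm1. These means rest on 1361 recovered reads in NIC, 644 in NIC-Prmt6, 126 in NIC-Prmt1 and 63 in NIC-Carm1. Among all genes tested, the Cyp1a1 log2 difference from NIC ranked as the lowest but 1 in NIC-Carm1 (-5.15 ± 0.55), the lowest but 3 in NIC-Prmt1 (-4.24 ± 0.55) and number 571 from the lowest in NIC-Prmt6 (-1.34 ± 0.60).

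Between transgenic groups, Cyp1a1 was lower in NIC-Carm1 than in NIC-Prmt6 by a log2 difference of -3.81 ± 0.55 (adjusted p = 7.99e-04), and this held with near-identical libraries averaged and without any one library (adjusted p up to 0.0283). NIC-Prmt1 against NIC-Prmt6 gave -2.90 ± 0.55 (adjusted p = 0.0136). That call ended on averaging (adjusted p = 0.193), without NIC-Prmt6 replicate 1 or 2 (0.145 and 0.132) and without NIC-Prmt1 replicate 3 (0.0539). NIC-Prmt1 and NIC-Carm1 were not shown to differ (0.91 ± 0.49, 95% interval -0.18 to 1.999, adjusted p = 0.196). These comparisons hold the low Cyp1a1 values that led to the choice of the set, so they are not independent of that choice.

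**Figure D1:**
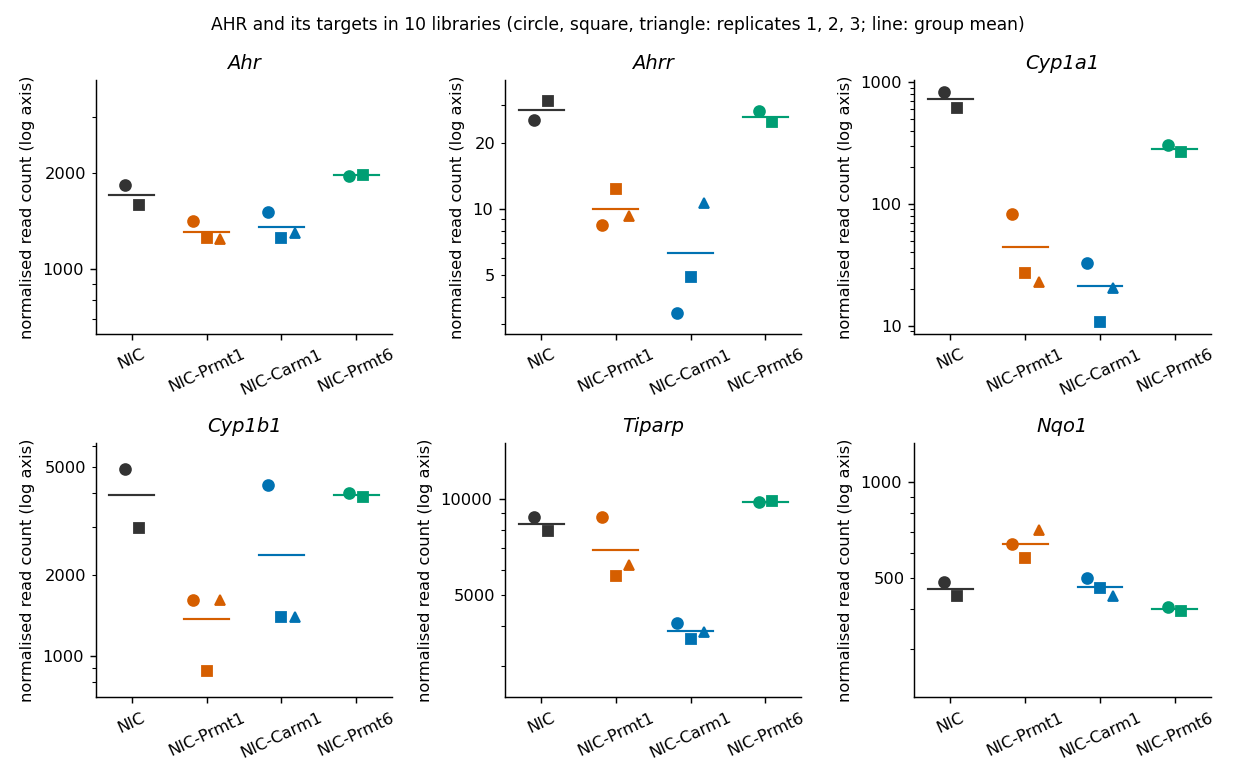
Normalised read count (log axis) of Ahr, Ahrr, Cyp1a1, Cyp1b1, Tiparp and Nqo1 in each library of NIC, NIC-Prmt1, NIC-Carm1 and NIC-Prmt6; points are libraries (circle, square and triangle are replicates 1, 2 and 3) and lines are group means. Cyp1a1 lies at 616 and 838 in NIC, at 267 and 302 in NIC-Prmt6 and between 10.7 and 82.7 in the other libraries.

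Ahr itself (chromosome 12, 35497974 to 35535038, minus strand, protein coding), the receptor gene, varied far less. Its normalised read count was 1832 and 1591 in NIC, 1416, 1251 and 1243 in NIC-Prmt1, 1507, 1248 and 1301 in NIC-Carm1, and 1963 and 1976 in NIC-Prmt6. The NIC-Prmt1 and NIC-Carm1 libraries lay below both NIC libraries, and the NIC-Prmt6 libraries lay above them. The log2 difference from NIC was -0.39 ± 0.11 in NIC-Prmt1, -0.34 ± 0.11 in NIC-Carm1 and 0.21 ± 0.12 in NIC-Prmt6. Ahr was lower in NIC-Carm1 than in NIC-Prmt6 (-0.55 ± 0.11, adjusted p = 0.00443) and lower in NIC-Prmt1 than in NIC-Prmt6 (-0.60 ± 0.11, adjusted p = 0.0131). Both calls ended on averaging (adjusted p = 0.108 and 0.236), and the second also without either NIC-Prmt6 library (0.138 and 0.146) or NIC-Prmt1 replicate 3 (0.0509). NIC-Prmt1 and NIC-Carm1 differed by -0.05 ± 0.10 (95% interval -0.27 to 0.17, adjusted p = 0.735).

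Ahrr (chromosome 13, 74211118 to 74292331, minus strand, protein coding) encodes the repressor that competes with AHR for ARNT. It had few reads: 27 and 24 in NIC, 31 and 29 in NIC-Prmt6, 8, 12 and 9 in NIC-Prmt1, and 3, 6 and 11 in NIC-Carm1. As normalised read counts these were 28.4 ± 4.02 (SD, n = 2), 26.5 ± 2.21 (SD, n = 2), 10.1 ± 2.08 (SD, n = 3) and 6.33 ± 3.84 (SD, n = 3). NIC and NIC-Prmt6 overlapped, and every NIC-Prmt1 and NIC-Carm1 library lay below both. The log2 difference from NIC was -1.42 ± 0.47 in NIC-Prmt1, -2.12 ± 0.47 in NIC-Carm1 and -0.09 ± 0.51 in NIC-Prmt6. Ahrr was lower in NIC-Carm1 than in NIC-Prmt6 (-2.03 ± 0.47, adjusted p = 0.00789). That call ended on averaging (adjusted p = 0.0862) and without either NIC-Prmt6 library (0.0709 and 0.0547). NIC-Prmt1 against NIC-Prmt6 gave -1.33 ± 0.47 (adjusted p = 0.112).

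Tiparp (chromosome 3, 65528410 to 65555518, plus strand, protein coding) encodes a mono-ADP-ribosyltransferase that modifies AHR and shortens its activity. Its normalised read count was 8770 and 7939 in NIC, 9747 and 9837 in NIC-Prmt6, 8798, 5722 and 6195 in NIC-Prmt1, and 4090, 3630 and 3818 in NIC-Carm1. NIC-Carm1 was below every other library, and NIC-Prmt1 replicate 1 stood just above both NIC libraries while its replicates 2 and 3 stood below them. The log2 difference from NIC was -1.12 ± 0.16 in NIC-Carm1, -0.30 ± 0.16 in NIC-Prmt1 and 0.23 ± 0.18 in NIC-Prmt6. Tiparp was lower in NIC-Carm1 than in NIC-Prmt6 (-1.35 ± 0.16, adjusted p = 3.09e-04) and higher in NIC-Prmt1 than in NIC-Carm1 (0.82 ± 0.14, adjusted p = 0.00427), and both calls held in every alternative run (adjusted p up to 0.0215 and 0.0402). NIC-Prmt1 against NIC-Prmt6 gave -0.53 ± 0.16 (adjusted p = 0.0744). Without NIC-Prmt1 replicate 1 this became -0.72 (adjusted p = 0.00370). Of 4358 exon bases of Tiparp, about 446 overlap the gene 4931440P22Rik on the opposite strand. The strand setting of the counting is not given in the sources used here, so how reads in that stretch were counted is uncertain.

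Cyp1b1 (chromosome 17, 79701537 to 79715061, minus strand, protein coding), a P450 enzyme that hydroxylates estradiol and is widely made by stromal cells, did not follow the order of Cyp1a1. Its normalised read count was 4903 and 2983 in NIC, 4019 and 3860 in NIC-Prmt6, 1610, 880 and 1606 in NIC-Prmt1, and 4285, 1395 and 1399 in NIC-Carm1. NIC-Carm1 replicate 1 stood inside the NIC range, 3.07 times above the near-identical replicates 2 and 3 of its group, so the mean of that group (2360 ± 1667, SD, n = 3) describes none of its libraries. The NIC-Prmt1 libraries were all below NIC and NIC-Prmt6. The log2 difference from NIC was -1.54 ± 0.46 in NIC-Prmt1, -0.91 ± 0.46 in NIC-Carm1 and 0.04 ± 0.51 in NIC-Prmt6.

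None of the tests of Cyp1b1 between transgenic groups passed with limma: NIC-Prmt1 against NIC-Prmt6 gave -1.58 ± 0.46 (adjusted p = 0.0665), NIC-Carm1 against NIC-Prmt6 gave -0.96 ± 0.46 (adjusted p = 0.125), and NIC-Prmt1 against NIC-Carm1 gave -0.63 ± 0.41 (adjusted p = 0.286). Without NIC-Carm1 replicate 1 the first was called at -1.58 (adjusted p = 0.00666) and the second at -1.49 (adjusted p = 0.00466). Milk protein genes, a list added after the data were seen, summed to 39480 CPM in NIC-Carm1 replicate 1, to 6090 and 6230 CPM in replicates 2 and 3, and to between 1157 and 5767 CPM in all other libraries. The part of these differences in the Cyp1b1 values was not tested. Fibroblast genes summed to 2896 and 3575 CPM in NIC, 4638 to 6273 CPM in NIC-Prmt1, 3327 to 3725 CPM in NIC-Carm1 and 11560 and 11611 CPM in NIC-Prmt6. All 8 fibroblast genes were higher in NIC-Prmt6 than in NIC, where 19.0% of all genes tested were higher. Cyp1b1 means in NIC-Prmt6 and NIC were 3939 and 3943. Against NIC-Prmt6 the same 8 fibroblast genes were all lower in NIC-Prmt1, where 4.94% of all genes were lower. In bulk libraries, fewer cells of a type and less RNA per cell cannot be told apart.

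Nqo1 (chromosome 8, 107388225 to 107403206, minus strand, protein coding) encodes a quinone reductase that both AHR and the oxidative stress factor NRF2 induce. It was the member that was highest in NIC-Prmt1. Its normalised read count was 488 and 441 in NIC, 640, 577 and 710 in NIC-Prmt1, 501, 466 and 440 in NIC-Carm1, and 407 and 396 in NIC-Prmt6. Every NIC-Prmt1 library was above every other library, and NIC-Carm1 overlapped NIC. The log2 difference from NIC was 0.46 ± 0.12 in NIC-Prmt1, 0.02 ± 0.12 in NIC-Carm1 and -0.21 ± 0.13 in NIC-Prmt6. Nqo1 was higher in NIC-Prmt1 than in NIC-Carm1 (0.45 ± 0.11, adjusted p = 0.0148) and than in NIC-Prmt6 (0.67 ± 0.12, adjusted p = 0.0117). Both calls ended on averaging (adjusted p = 0.1001 and 0.234). The first also ended without NIC-Prmt1 replicate 3 (0.0515) or NIC-Carm1 replicate 3 (0.0584), and the second without either NIC-Prmt6 library (0.120 and 0.145).

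Read across the set, NIC-Carm1 against NIC-Prmt6 called 4 of the 6 members lower (Ahr, Ahrr, Cyp1a1 and Tiparp), where 20.9% of all genes tested were lower, 18.4% higher and 39.2% called in either direction. Averaging left 2 of them, Cyp1a1 and Tiparp. NIC-Prmt1 against NIC-Prmt6 called 2 lower and 1 higher, against 4.94% and 2.54% of all genes (7.49% in all). After upper-quartile rescaling that comparison held 583 higher and 545 lower genes in place of 399 and 776, and on averaging limma called 16 genes, none of them a member. NIC-Prmt1 against NIC-Carm1 called 2 higher, Tiparp and Nqo1, and none lower, against 14.9% and 11.8% of all genes (26.8% in all). Cyp1a1 is among the lower members in both comparisons with NIC-Prmt6, and its low values led to the choice of the set. Those counts are thus not independent of that choice. The 3 comparisons also share libraries, so their counts are not independent of each other.

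In the contrasts that chose the set, groups did not overlap for 4 members lower in NIC-Prmt1 than in NIC (all but Tiparp and Nqo1) and 1 higher (Nqo1), where 27.1% of all genes were lower without overlap and 28.2% higher. In NIC-Carm1 against NIC, 4 members were lower without overlap (all but Cyp1b1 and Nqo1), and none higher, against 24.5% and 23.4% of all genes. In NIC-Prmt6 against NIC, 2 members were lower (Cyp1a1 and Nqo1) and 2 higher (Ahr and Tiparp), against 38.6% and 38.1%. The 3 contrasts use the same 2 NIC libraries.

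**Figure D2:**
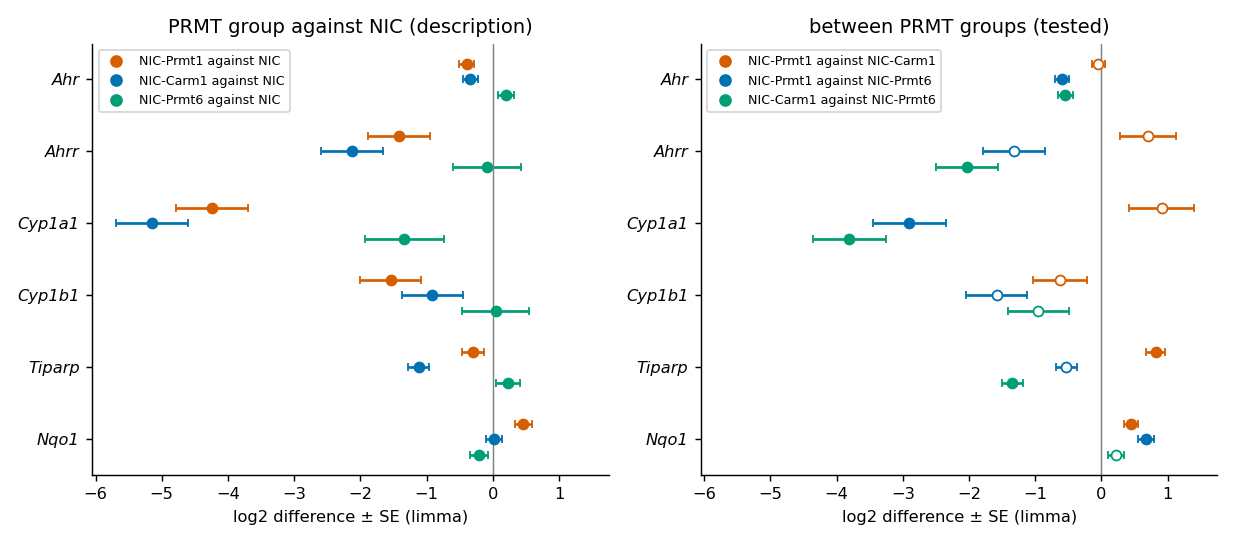
Log2 difference ± SE (limma) of the 6 members for each transgenic group against NIC (left, a description) and between transgenic groups (right, where filled points passed an adjusted p of 0.05 and open points did not). Cyp1a1 reaches -5.15 in NIC-Carm1 against NIC, and against NIC-Prmt6 it lies at -2.90 in NIC-Prmt1 and -3.81 in NIC-Carm1.

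Levels were compared between genes per kilobase of summed exon length (GENCODE M21), which removes the effect of gene length. In the NIC libraries Tiparp was the most abundant member at 1822 and 2012 normalised reads per kb, followed by Cyp1b1 at 511 and 840. Nqo1 (284 and 314), Ahr (258 and 297) and Cyp1a1 (221 and 301) came next and overlapped each other, and Ahrr was lowest at 2.70 and 3.31. In NIC-Prmt6, Tiparp (2237 and 2257) and Cyp1b1 (661 and 688) again led, ahead of Ahr (319 and 321), Nqo1 (255 and 262), Cyp1a1 (95.7 and 109) and Ahrr (2.64 and 2.97). In NIC-Carm1 and NIC-Prmt1, Cyp1a1 lay between 3.84 and 29.7 normalised reads per kb, below every other member but Ahrr, whose values were 0.358 to 1.32.

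The proteins that hold AHR in waiting and pair with it were described by a list of 9 genes (among them Arnt, Hsp90aa1, Hsp90ab1, Ptges3 for p23, and coactivators such as Ncoa1). Of these, 2 fell in NIC-Prmt1 against NIC, 4 fell in NIC-Carm1 and 3 fell and 1 rose in NIC-Prmt6, where 14.4%, 9.36% and 17.8% of all genes fell and 29.6%, 16.0% and 36.8% were called in either direction. The medians of the list were -0.13, -0.21 and -0.03, against -0.01 to 0.00 over all genes. The stress-inducible chaperone gene Hsp90aa1 led. NIC had a mean normalised read count of 93438 ± 14847 (SD, n = 2) against 47734 ± 655 (SD, n = 2) for NIC-Prmt6. NIC-Prmt1 had 37224 ± 6371 (SD, n = 3) and NIC-Carm1 26429 ± 654 (SD, n = 3). It fell in each group, with log2 differences of -1.33 ± 0.16 in NIC-Prmt1 (adjusted p = 8.94e-04), -1.81 ± 0.16 in NIC-Carm1 (adjusted p = 4.29e-04) and -0.96 ± 0.18 in NIC-Prmt6 (adjusted p = 0.00326). The last call ended on averaging (adjusted p = 0.0620).

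Hsp90ab1, the constitutive chaperone gene, also fell in all 3 groups, with log2 differences of -0.63 ± 0.16, -0.95 ± 0.16 and -0.56 ± 0.17. Those calls ended on averaging (adjusted p up to 0.220), in NIC-Prmt1 and NIC-Prmt6 also without either NIC library, and in NIC-Prmt6 also without either NIC-Prmt6 library or NIC-Carm1 replicate 2 or 3. Arnt, the DNA-binding partner, did not pass against NIC but was lower in NIC-Carm1 than in NIC-Prmt6 (-0.34 ± 0.09, adjusted p = 0.0126), with 2453, 2333 and 2442 against 3019 and 3077. That call ended on averaging and without either NIC-Prmt6 library (adjusted p up to 0.181).

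**Figure D3:**
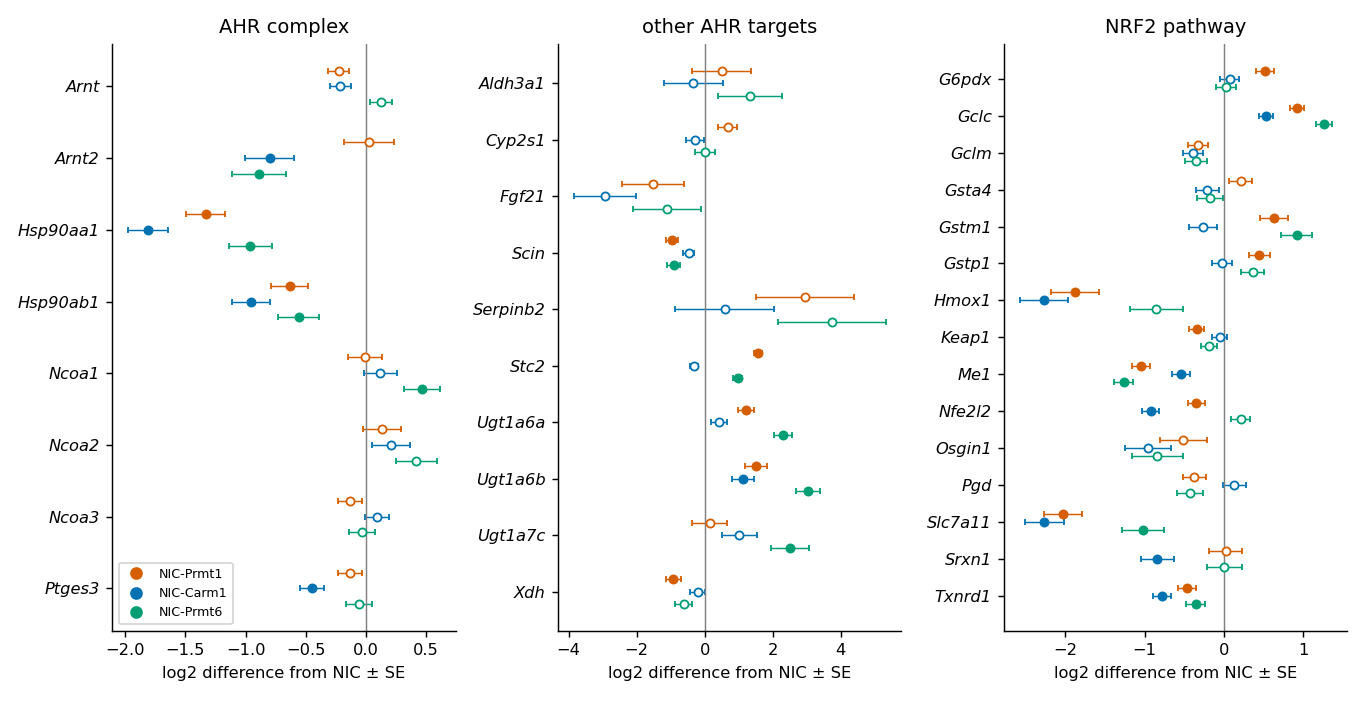
Log2 difference from NIC ± SE of genes of the AHR complex, of other AHR targets and of the NRF2 pathway in NIC-Prmt1, NIC-Carm1 and NIC-Prmt6; filled points passed a limma adjusted p of 0.05. Hsp90aa1 is at -1.33, -1.81 and -0.96, while Ugt1a6b is at 1.501, 1.12 and 3.04.

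Taken as a list, other genes that AHR is known to induce did not share the order of Cyp1a1. The exception, by group means only, was Fgf21, with mean normalised read counts of 29.9 in NIC, 13.6 in NIC-Prmt6, 11.8 in NIC-Prmt1 and 4.82 in NIC-Carm1. Its low values ran from 5.30 to 22.7 in NIC-Prmt1, which overlapped NIC-Prmt6 at 10.9 and 16.3. Fgf21 did not pass against NIC in NIC-Prmt1, NIC-Carm1 or NIC-Prmt6 (limma adjusted p = 0.230, 0.0562 and 0.417). Of 10 tested genes of a list of 13, 3 rose and 2 fell in NIC-Prmt1 against NIC, 1 rose in NIC-Carm1, and 4 rose and 1 fell in NIC-Prmt6, where 15.2%, 6.65% and 19.0% of all genes rose and 14.4%, 9.36% and 17.8% fell. The NIC-Carm1 call, Ugt1a6b (adjusted p = 0.0406), was lost in 13 of 20 alternatives, averaging, edgeR and DESeq2 among them (adjusted p up to 0.195). The list medians were 0.59, -0.24 and 1.15. Cyp1a2, Ugt1a2 and Gsta1 had no row in the table used here. Ugt1a6a, a glucuronidating enzyme of the UGT1A locus, was at 23.6 and 26.0 in NIC, 59.4, 49.7 and 69.2 in NIC-Prmt1, 38.3, 31.3 and 31.0 in NIC-Carm1, and 125 and 126 in NIC-Prmt6. It was thus highest in NIC-Prmt6 and lowest in NIC, where Cyp1a1 was highest. Ugt1a6a rose in NIC-Prmt1 (log2 difference 1.22 ± 0.24, adjusted p = 0.00611) and more in NIC-Prmt6 (2.30 ± 0.27, adjusted p = 3.20e-04). Ugt1a6b also rose in both, with log2 differences of 1.501 ± 0.32 and 3.04 ± 0.35. In NIC it lay at only 7.80 and 9.45, under the filter value of 10, so it passed the filter through the transgenic groups. The genes of this locus share their last exons, so they are uncertain as single genes.

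Against NIC-Prmt6, NIC-Carm1 was lower in 4 of the 10 (Ugt1a6a, Ugt1a6b, Ugt1a7c and Stc2), where 20.9% of all genes were lower. On averaging 2 were called, Ugt1a6a and Stc2, and the Ugt1a6b call ended (adjusted p = 0.0660). Stc2, which encodes a secreted glycoprotein hormone, rose in NIC-Prmt1 (1.57 ± 0.12, adjusted p = 1.57e-04) and NIC-Prmt6 (0.97 ± 0.13, adjusted p = 6.36e-04) against NIC and was at -0.32 in NIC-Carm1. Scin, which encodes an actin-severing protein, fell in NIC-Prmt1 (-0.96 ± 0.17, adjusted p = 0.00356) and NIC-Prmt6 (-0.91). The NIC-Prmt6 call of Scin was not kept in every alternative run. Aldh3a1, an aldehyde dehydrogenase of the classic AHR battery, did not pass in any of the 6 comparisons, with 27.4 and 24.7 in NIC and 3.38, 41.1 and 52.4 in NIC-Carm1.

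The NRF2 list (15 genes) covers the oxidative stress pathway that also drives Nqo1. Against NIC, 4 rose and 6 fell in NIC-Prmt1, 1 rose and 6 fell in NIC-Carm1, and 2 rose and 3 fell in NIC-Prmt6, with medians of -0.34, -0.39 and -0.19. Of all genes 15.2% rose and 14.4% fell in NIC-Prmt1, 6.65% and 9.36% in NIC-Carm1, and 19.0% and 17.8% in NIC-Prmt6, so the NIC-Prmt6 count of 5 in 15 is near the share over all genes (36.8%). On averaging the counts called were 6, 4 and 2. The factor gene Nfe2l2 itself was at 7730 and 6767 in NIC, 6297, 5070 and 5776 in NIC-Prmt1, 4027, 3686 and 3738 in NIC-Carm1, and 8378 and 8392 in NIC-Prmt6. It fell in NIC-Carm1 against NIC (-0.92 ± 0.11, adjusted p = 0.00119) and was lower there than in NIC-Prmt6 (-1.14 ± 0.11, adjusted p = 1.08e-04), calls that held in every alternative run. Members of the pathway went different ways. The cystine transporter gene Slc7a11 fell in NIC-Prmt1 (-2.03 ± 0.24), NIC-Carm1 (-2.26 ± 0.24) and NIC-Prmt6 (-1.02). Its NIC-Prmt6 call ended on averaging. The heme oxygenase gene Hmox1 fell in NIC-Prmt1 (-1.87 ± 0.30, adjusted p = 0.00267) and NIC-Carm1 (-2.27 ± 0.30, adjusted p = 0.00208). The glutathione synthesis gene Gclc rose in NIC-Prmt1 (0.92 ± 0.09, adjusted p = 3.86e-04), NIC-Carm1 (0.53) and NIC-Prmt6 (1.26 ± 0.10, adjusted p = 7.08e-05).

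Por, the reductase that passes electrons to every microsomal P450 enzyme, was at 3098 and 2802 in NIC, 2726, 2398 and 2966 in NIC-Prmt1, 1987, 2099 and 2055 in NIC-Carm1, and 3893 and 3870 in NIC-Prmt6. It was lower in NIC-Carm1 than in NIC-Prmt6 (-0.92 ± 0.10, adjusted p = 1.98e-04) in every alternative run, and lower in NIC-Prmt1 than in NIC-Prmt6 (-0.53 ± 0.10, adjusted p = 0.0138), which ended on averaging and without either NIC-Prmt6 library (adjusted p up to 0.265). It belongs to a list of P450 partners and estrogen-metabolising enzymes, of which 6 genes were tested. Against NIC, 1 was lower in NIC-Prmt1, 1 lower in NIC-Carm1, and 1 higher and 1 lower in NIC-Prmt6. Of all genes 29.6%, 16.0% and 36.8% were called there. NIC-Prmt1 had 2 higher than NIC-Carm1 and 1 lower than NIC-Prmt6, where 26.8% and 7.49% of all genes were called. In NIC-Carm1 against NIC-Prmt6, 3 were lower (Por, Ephx1 and Cyb5a). Of all genes 20.9% were lower there and 39.2% called in either direction. The calls of Ephx1 and Cyb5a ended on averaging and without either NIC-Prmt6 library, and that of Cyb5a also under upper-quartile rescaling and without NIC-Carm1 replicate 2 or 3 (adjusted p up to 0.103 and 0.276).

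Among 8 tested enzymes that make or divert tryptophan products, some of which are AHR ligands, only Tph1, the first enzyme of serotonin synthesis, was called in NIC-Prmt1 (1.63 ± 0.25, adjusted p = 0.00191) and in NIC-Carm1 (1.51 ± 0.25, adjusted p = 0.00482) against NIC, and it rose in both. The second call ended on averaging and without NIC replicate 1 (adjusted p up to 0.0517). In NIC-Prmt1 and NIC-Carm1 against NIC, 29.6% and 16.0% of all genes were called. In NIC-Prmt6 against NIC, where 36.8% of all genes were called, the only call was Ccbl2, which fell (-0.97 ± 0.29, adjusted p = 0.0252). That call ended on averaging and without any single NIC or NIC-Prmt6 library. Ido1, the interferon-induced enzyme of the kynurenine route, ranged from 128 to 813 within NIC and from 829 to 3091 in NIC-Prmt1, and it did not pass. Of 10 tested bHLH-PAS relatives of AHR, 3 rose in NIC-Prmt1 against NIC, 1 rose and 1 fell in NIC-Carm1, and 3 rose and 1 fell in NIC-Prmt6. These counts are near the shares of all genes called in the same comparisons (29.6%, 16.0% and 36.8%). The rises in NIC-Prmt1 include Sim2, at 0.945 and 2.60 in NIC and 10.4 to 54.1 in NIC-Prmt1. Sim2 thus passed the filter on low values through the groups where it was high. The hypoxia factor gene Epas1 rose in NIC-Prmt1 (0.81 ± 0.18, adjusted p = 0.01002) and NIC-Prmt6 (1.22 ± 0.20, adjusted p = 0.00169). The NIC-Prmt1 call ended without NIC replicate 2 (adjusted p = 0.0633). All 8 endothelial markers rose in the same groups, where 15.2% and 19.0% of all genes rose. The part of endothelial cells in the Epas1 values was not tested.

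The genes whose log2 values over the 10 libraries were most like Cyp1a1, out of 12591 with a mean of at least 50, were Plekha1 (Pearson r = 0.99), Sntb2 (0.98), Pum2 (0.97), Hnrnpll (0.97) and Ankrd28 (0.97). The libraries share genotypes and 2 near-identical pairs, so these values are a description. Plekha1, a phosphoinositide-binding adaptor, had means of 1685 ± 164 and 1551 ± 17.2 (SD, n = 2) in NIC and NIC-Prmt6, and of 1186 ± 87.7 and 1096 ± 76.7 (SD, n = 3) in NIC-Prmt1 and NIC-Carm1. It had the same order of groups as Cyp1a1 over a far narrower range. The genes most like Ahr were Whsc1l1 (r = 0.98), Fnip2 (0.98), Tgs1 (0.97), Smcr8 (0.97) and Uhrf2 (0.97).

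Markers of other cells moved with the groups. Luminal epithelium genes summed to 9661 and 11815 CPM in NIC and to between 6258 and 9431 CPM in the 8 other libraries, so they were highest where Cyp1a1 was highest. Of these 10 genes, 4 fell and 2 rose in NIC-Prmt1 against NIC, 6 fell in NIC-Carm1 and 7 fell in NIC-Prmt6, where 14.4%, 9.36% and 17.8% of all genes fell. The NIC-Prmt6 libraries held the least of these transcripts but more Cyp1a1 than NIC-Prmt1 and NIC-Carm1. NIC-Prmt1 replicate 1, which had the most Cyp1a1 and Tiparp of its group, held 968 CPM of skin keratinocyte genes, replicate 3 held 82.5 CPM, and the highest of the other libraries held 6.64 CPM. Krt77 and Krt25 had no reads in NIC replicate 1, nor Lor in NIC-Prmt6 replicate 1. Endothelial genes summed to 1135 and 1383 CPM in NIC, 1234 to 1597 CPM in NIC-Carm1, 2339 to 3354 CPM in NIC-Prmt1 and 2979 and 2985 CPM in NIC-Prmt6. The part of these cell types in the Cyp1a1 and Tiparp values was not tested.

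**Figure D4:**
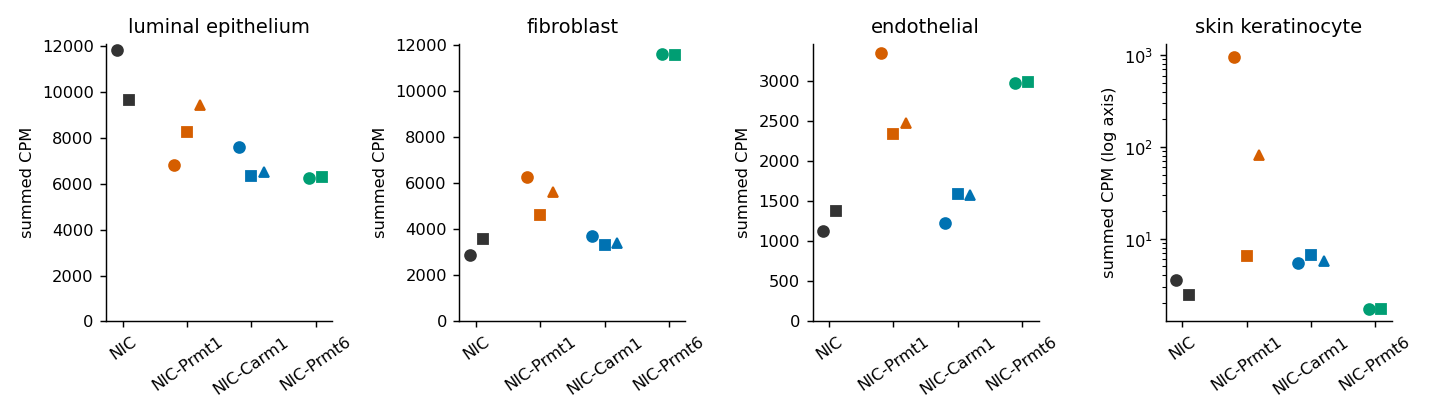
Summed CPM of luminal epithelium, fibroblast, endothelial and skin keratinocyte (log axis) marker genes in each library; circle, square and triangle are replicates 1, 2 and 3. Luminal genes are highest in NIC, at 9661 and 11815 CPM, fibroblast genes in NIC-Prmt6, at 11560 and 11611 CPM, and skin genes in NIC-Prmt1 replicate 1, at 968 CPM.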

How the data were processed

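RNA-seq of 10 libraries in 4 genotype groups was used. The submitters' processing notes name the build mm10 and the tools TopHat2 2.0.10, HTSeq 0.6.0 and DESeq 1.18.0. The sources used here do not give the annotation or the strand setting. The deposited table gives 1 normalised signal per gene and library. In every column 100% of the values were whole multiples of 1 step (tolerance 0.01), so the deposited signal is a read count divided by a size factor, and whole reads were recovered.

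The members and gene lists were chosen with earlier results of these data known. The test was limma-trend (limma 3.58.1, R 4.3.3) on log2(value + 1), with 1 fit of 4 group means over all 10 libraries (6 residual degrees of freedom), checked on simulated counts. The design named a count test for raw counts, which the table does not hold. Named genes are the 6 members, the up to 3 called genes with the smallest adjusted p of each of 6 pathway lists (the text gives examples), and the 5 genes most like Cyp1a1 and Ahr. Other list genes, such as Aldh3a1 and Ido1, were added after their values were seen. Of the list genes, Kyat1 and Kyat3 were matched as Ccbl1 and Ccbl2. A gene of the lists is not reported here.

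edgeR 4.0.16 on recovered reads called 4537, 2457 and 5772 genes for NIC-Prmt1, NIC-Carm1 and NIC-Prmt6 against NIC. It called 4189 for NIC-Prmt1 against NIC-Carm1, 1207 against NIC-Prmt6, and 6207 for NIC-Carm1 against NIC-Prmt6. The other alternatives were DESeq2 1.42.0 on recovered reads, upper-quartile rescaling, pseudocounts of 0.5 and 5, no filter, a value of at least 50, the 2 compared groups alone, a replicate block, averaging of near-identical libraries, and leaving out each library.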

Additional observations from a re-analysis of the deposited data

How the results depend on the processing

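The Cyp1a1 differences from NIC kept their sign and moved by less than the spread between replicates in all 20 alternatives of each comparison, within -5.51 to -4.75 for NIC-Carm1, -4.80 to -3.90 for NIC-Prmt1 and -1.56 to -1.12 for NIC-Prmt6. Between transgenic groups, averaging near-identical libraries, which leaves NIC-Prmt6 with 1 library assumed to vary like the others, ended these calls: Cyp1a1, Ahr and Nqo1 in NIC-Prmt1 against NIC-Prmt6 (-2.90, -0.60 and 0.67), Nqo1 in NIC-Prmt1 against NIC-Carm1 (0.42), and Ahr and Ahrr in NIC-Carm1 against NIC-Prmt6 (-0.51 and -2.15). In NIC-Prmt1 against NIC-Prmt6, Cyp1b1 was called with the 2 groups alone (-1.58) and Tiparp with DESeq2 (-0.50). Without single libraries, the values in NIC-Prmt1 against NIC-Prmt6 ran from -3.47 to -2.56 for Cyp1a1, -0.66 to -0.56 for Ahr, -1.73 to -1.29 for Cyp1b1, -0.72 to -0.41 for Tiparp and 0.60 to 0.75 for Nqo1. They ran from 0.37 to 0.52 for Nqo1 in NIC-Prmt1 against NIC-Carm1, and in NIC-Carm1 against NIC-Prmt6 from -1.49 to -0.69 for Cyp1b1 and -2.43 to -1.72 for Ahrr. With a value of at least 50 required, Ahrr was not tested.

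Counts of called genes fell on averaging, from 4645 to 2606 in NIC-Prmt1, 2513 to 341 in NIC-Carm1 and 5778 to 1667 in NIC-Prmt6 against NIC, from 4199 to 1364 in NIC-Prmt1 against NIC-Carm1, 1175 to 16 in NIC-Prmt1 against NIC-Prmt6 and 6157 to 1261 in NIC-Carm1 against NIC-Prmt6. Fewer libraries enter that fit. Without single libraries the 6 counts ran, in that order, from 2271 to 5646, 708 to 3384, 2656 to 6632, 2638 to 4692, 47 to 2241 and 2569 to 6799. With the 2 groups alone they were 2785 for NIC-Prmt1 and 1596 for NIC-Carm1 against NIC, and DESeq2 called 2087 in NIC-Prmt1 against NIC-Prmt6; the cause was not tested. Upper-quartile rescaling moved the split of calls in NIC-Carm1 against NIC from 1044 higher and 1469 lower to 1310 and 1230.

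No pairing of the samples by replicate number was detected. Of 13 same-numbered pairs between groups, 1 correlated above 0.1 in its deviations, and 3 of 10 libraries correlated best with their own number. In a group of 2 libraries the deviations mirror each other, so these pairs are not separate checks and could miss a pairing. A replicate block gave 1667 called genes in NIC-Carm1 against NIC and 571 in NIC-Prmt1 against NIC-Prmt6, and changed no call of a member between transgenic groups. Of the other genes named, it ended the calls of Cyb5a in NIC-Carm1 against NIC-Prmt6 and of Ugt1a6b in NIC-Carm1 against NIC, among others.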
